A study of Mus musculus with 74 samples.

Results

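The tumours described here carried a guide RNA against Keap1 and a guide RNA against Lkb1 on the same lentiviral construct, and they were set against tumours of the same mice with only one of these genes targeted or with none. Members were taken by guide name. Keap1+Lkb1 tumours had one guide of each gene, in either order. Keap1+inert and Lkb1+inert tumours had one such guide beside an inert guide, and inert/inert tumours had a pair of different inert guides, where the inert guides were the 5 named safe (3 guides), NT and EGFP. There were 3325 Keap1+Lkb1 tumours among 378754 tumours in all, or 0.878%, beside 5998 Keap1+inert, 4703 Lkb1+inert and 2973 inert/inert tumours. Each gene had 2 guides, so Keap1+Lkb1 tumours came from 4 guide pairs in 8 constructs.

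The 74 mice carried R26LSL-Tomato within the background named KT, and a pooled lentivirus that carried Cre, a barcode and a guide pair started tumours in their lungs. Cre switches on the Tomato reporter in each infected cell, and the barcode of the virus marks each tumour as a clone. The groups were KT_H11_Cas9 (45 mice), KT_H11_LSL-Cas9 (20 mice) and KT (9 mice). The name H11_Cas9 places Cas9 at the H11 locus, and in H11_LSL-Cas9 a stop cassette that Cre removes lies before it. The protocol text writes the LSL form for both Cas9 lines, and the groups used here are those of the genotype label of every mouse. There is no Cas9 in KT mice, so that guides cannot cut there, and their ratios between constructs give the composition of the virus pool. Lungs were taken at about 3 months, and the barcode and guides were amplified from 32 µg of lung DNA. Only DNA barcodes were read, so that neither the cut in a tumour nor the loss of a protein was measured. The amount of virus given is not stated in the sources used here.

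Keap1 is the adaptor by which a ubiquitin ligase marks the transcription factor NRF2 for destruction, and cells without it express antioxidant and detoxifying genes at a high level. Lkb1, also named Stk11, is a kinase that activates AMPK and the related salt-inducible kinases, and it restrains growth in lung epithelium. Both are tumour suppressors that are often mutated together in human lung adenocarcinoma.

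In KT_H11_Cas9 mice, 511 Keap1+Lkb1 tumours were listed, beside 1464 Keap1+inert, 1021 Lkb1+inert and 1107 inert/inert tumours. In KT_H11_LSL-Cas9 mice there were 420, beside 734, 642 and 400 in the same order, and in KT mice 2394, beside 3800, 3040 and 1466. Reads per mouse ranged from 118601 to 6256147 in KT_H11_Cas9, from 37 to 1161475 in KT_H11_LSL-Cas9 and from 1434013 to 11183386 in KT. A Keap1+Lkb1 tumour had a median of 24 reads in KT_H11_Cas9, 12.5 in KT_H11_LSL-Cas9 and 67 in KT. The smallest tumour listed for a mouse lay between 50.1 and 105 cells in KT_H11_Cas9, between 50.4 and 369 in KT_H11_LSL-Cas9 and between 50.4 and 56.2 in KT, so smaller clones cannot be seen. The 3 main spike-in entries summed to near 100000 cells in 25 KT_H11_Cas9 and 5 KT mice and to near 300000 cells in 20 KT_H11_Cas9, 20 KT_H11_LSL-Cas9 and 4 KT mice. All KT_H11_LSL-Cas9 mice have names that begin with HC or MT, letters that no mouse of the other groups has, so anything marked by these letters cannot be told apart from that genotype.

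Keap1+Lkb1 tumours were fewer in KT_H11_Cas9 mice than the virus pool gave in KT mice, and fewer than with either gene alone. A KT_H11_Cas9 mouse held 4 to 27 of them (median 10), against 145 to 482 (median 222) in a KT mouse. Tumours of all genotypes were also fewer, with a median of 2570 in a KT_H11_Cas9 mouse and 19521 in a KT mouse. For inert/inert tumours the medians were 24 and 136. As a share of all tumours of a mouse, Keap1+Lkb1 tumours made up 0.193% to 0.824% (median 0.419%) in KT_H11_Cas9 mice and 1.06% to 1.24% (median 1.14%) in KT mice. These shares did not overlap between the groups. Those of Keap1+inert did (0.615% to 1.94% in KT_H11_Cas9 and 1.68% to 1.92% in KT), as did those of Lkb1+inert (0.343% to 1.58% and 1.33% to 1.54%). How many other gene pairs show no overlap was not counted, so the lack of overlap cannot be read as particular to Keap1+Lkb1.

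Number was then taken relative to inert/inert within a mouse, as the log2 of the ratio with 0.5 added to both counts. The log2 ratio of Keap1+Lkb1 ranged from -2.10 to 0.79 (median -1.15) in 45 KT_H11_Cas9 mice and from 0.58 to 0.81 (median 0.74) in 9 KT mice. It was below 0 in 43 of the 45 and in 0 of the 9, and the ranges met only through the highest KT_H11_Cas9 mouse. The mean was -1.13 in KT_H11_Cas9 and 0.71 in KT, a difference of -1.84 ± 0.09 (SE; permutation of mouse labels, adjusted p = 2.57e-05), or 0.28-fold. In this comparison 56.6% of the 136 gene pairs of the series were called lower, with a median of -0.56 over all pairs, and Keap1+Lkb1 was in place 121 from the highest. The raw p of 1e-05 is the smallest that these permutations can give.

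Keap1+inert tumours also fell in number in KT_H11_Cas9 mice, by 0.97 ± 0.07 on the log2 scale (mean log2 ratio 0.41 in KT_H11_Cas9 and 1.38 in KT, permutation, adjusted p = 3.4e-05). Lkb1+inert tumours fell by 1.19 ± 0.09 (mean -0.12 in KT_H11_Cas9 and 1.06 in KT, permutation, adjusted p = 3.4e-05). Among the 17 single genes of the pool, 52.9% were called lower. With both genes targeted the number was lower again: relative to Keap1+inert, Keap1+Lkb1 fell by 0.86 ± 0.09, and relative to Lkb1+inert by 0.65 ± 0.10 (permutation, adjusted p = 5.79e-05 for both). Of the 272 steps from a single gene to a pair, 33.8% were called lower and the median was -0.07.

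The combined loss in number was smaller than the product of the single losses, but the test over mice did not pass. From summed tumours, Keap1+Lkb1 stood at 0.283-fold of KT (95% interval from mice drawn with replacement 0.251 to 0.317), Keap1+inert at 0.51-fold (0.464 to 0.559) and Lkb1+inert at 0.445-fold (0.403 to 0.494). The product of the single values is 0.227, so the pair was 1.25 times the product (1.06 to 1.48). Over mice, the interaction in number was 0.32 ± 0.12 on the log2 scale (permutation p = 0.0196, adjusted p = 0.112), against a median of 0.09 over all pairs. In this contrast 11.8% of pairs were called higher. Counting NE as inert, adding 1 in place of 0.5, or keeping tumours of at least 200 cells brought the interaction past the threshold (0.39, 0.36 and 0.60, permutation, adjusted p = 0.0249, 0.037 and 0.0172). Of these, NE as inert was chosen after seeing the data. Under 7 of 11 alternatives the interaction stayed short of the threshold (permutation, adjusted p up to 0.975). It also stayed short whichever single mouse was left out (permutation, adjusted p = 0.0622 to 0.193).

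The number difference held within each spike-in total. Near 100000 cells it was -1.92 ± 0.13 for Keap1+Lkb1 (25 KT_H11_Cas9 against 5 KT mice, permutation, adjusted p = 0.00017), and near 300000 cells it was -1.73 ± 0.13 (20 against 4 mice, permutation, adjusted p = 0.000653). Relative to Keap1+inert the values were -0.90 and -0.82, and relative to Lkb1+inert -0.64 and -0.66, all past the threshold. Near 100000 cells the 5 KT mice have names that begin with SL and the 25 KT_H11_Cas9 mice with LA. What these letters mark cannot be told apart from genotype there. Near 300000 cells the 4 KT mice have LA names, as have 14 KT_H11_Cas9 mice, and 6 KT_H11_Cas9 mice have CM names. When tumours of at least 1000 cells alone were counted, the difference from KT was smaller, at -0.61 for Keap1+Lkb1 over inert/inert (permutation, adjusted p = 0.0275), and Lkb1+inert did not pass (-0.33, adjusted p = 0.184). The deficit relative to the single genes was no longer seen there: the difference from KT was 0.18 relative to Keap1+inert and -0.27 relative to Lkb1+inert (permutation, adjusted p = 0.584 and 0.324).

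**Figure D1:**
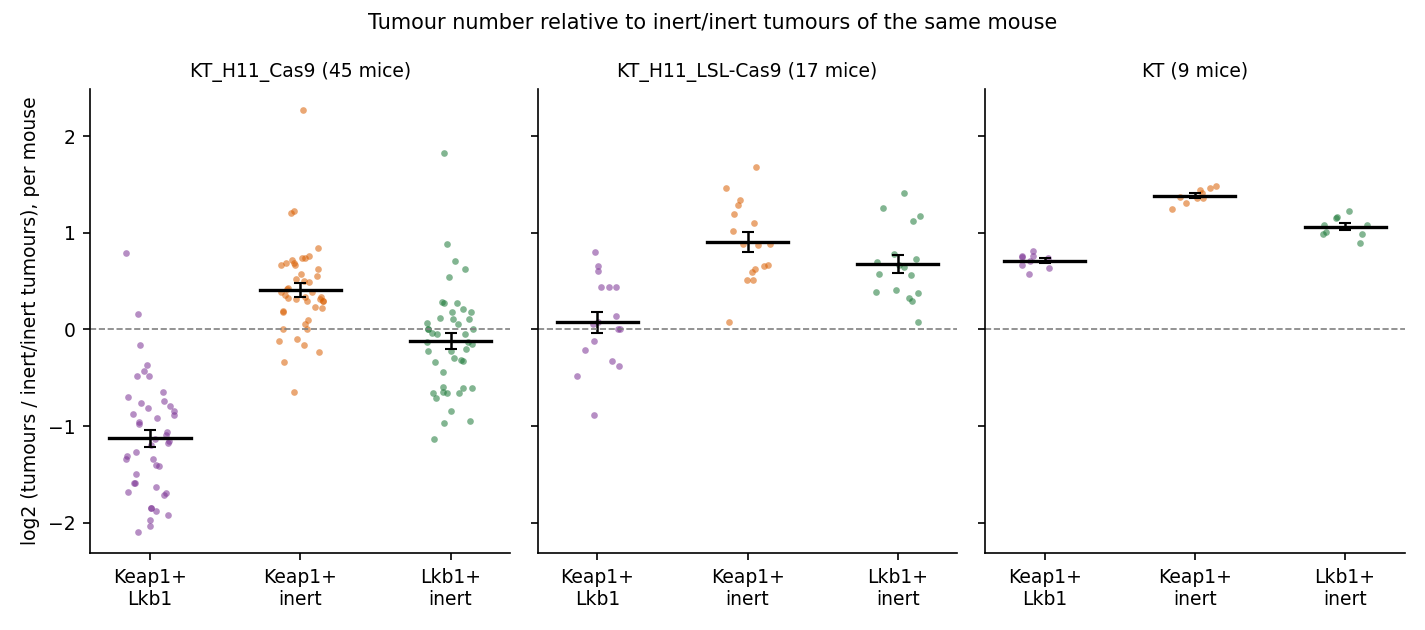
Log2 of the number of tumours over inert/inert tumours within a mouse (y axis), one point per mouse, for Keap1+Lkb1, Keap1+inert and Lkb1+inert in the 3 groups. Black lines are the mean and its SE. In KT_H11_Cas9 mice Keap1+Lkb1 averaged -1.13, below both single genes, and in KT mice it averaged 0.71.

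In KT_H11_LSL-Cas9 mice the loss in number was smaller. A mouse held 0 to 46 Keap1+Lkb1 tumours (median 21.5), and 18 of the 20 mice held any. Keap1+inert, Lkb1+inert and inert/inert tumours were each also found in 18 of the 20. Tumours of all genotypes numbered as few as 4 in a mouse of this group, and reads as few as 37. Over the 17 mice with at least 5 inert/inert tumours, the log2 ratio ranged from -0.89 to 0.80 (median 0.05), so most of these mice lay below the KT range of 0.58 to 0.81. The difference from KT was -0.64 ± 0.11 (mean 0.07 in KT_H11_LSL-Cas9 and 0.71 in KT, permutation, adjusted p = 9.71e-05), where 27.9% of pairs were called lower. With tumours of at least 1000 cells alone, this difference of the pair was reversed in sign and did not pass (0.19, permutation, adjusted p = 0.626). Keap1+inert fell by 0.48 ± 0.10 and Lkb1+inert by 0.39 ± 0.10 (permutation, adjusted p = 0.0028 and 0.00599, 23.5% of single genes called lower). Both of these calls were lost near 300000 cells, with 4 KT mice left (-0.45 and -0.37, permutation, adjusted p = 0.0735 and 0.1), and at 1000 cells (-0.30 and -0.13, adjusted p = 0.527 and 0.814), and that of Lkb1+inert with same-guide constructs kept (-0.24, adjusted p = 0.0582). Relative to Keap1+inert the pair differed by -0.16 ± 0.11 (95% interval -0.38 to 0.05, permutation, adjusted p = 0.329). Relative to Lkb1+inert it fell by 0.25 ± 0.08 (permutation, adjusted p = 0.0322), where 12.1% of steps were called lower. That last call was lost without any one of KT mice 3 and 5 or KT_H11_LSL-Cas9 mice 4, 6, 11, 16, 18 and 20 (values -0.25 to -0.22, adjusted p = 0.05 to 0.0609) and near 300000 cells, where 4 KT mice are left (-0.30, permutation, adjusted p = 0.141). Of 9 alternative settings, apart from leaving out mice, it was lost under 5, and under 1, at 1000 cells, the step changed sign (0.33). The step from Keap1+inert also changed sign at 1000 cells (0.50).

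The difference between the Cas9 groups was tested directly. Relative to inert/inert, Keap1+Lkb1 tumours were fewer in KT_H11_Cas9 than in KT_H11_LSL-Cas9 mice by -1.20 ± 0.14 on the log2 scale (means -1.13 and 0.07, permutation, adjusted p = 6.48e-05), where 44.1% of pairs were called lower. The step from Keap1+inert differed by -0.70 ± 0.13 and that from Lkb1+inert by -0.40 ± 0.11 (permutation, adjusted p = 0.000302 and 0.00958), and 21% of steps were called lower. With tumours of at least 200 cells the step from Lkb1+inert did not pass (-0.39, permutation, adjusted p = 0.173). The interaction did not pass (0.10 ± 0.17, permutation, adjusted p = 0.984). The mouse-name letters and the read depth move with this contrast, with 7.96 cells behind a read at the median in KT_H11_Cas9 and 12.9 in KT_H11_LSL-Cas9, and their part in it was not tested.

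The Keap1+Lkb1 tumours that were present in KT_H11_Cas9 mice were larger on average than inert/inert tumours of the same lungs. Size was the mean log2 of the cells per tumour, in mice where both genotypes had 5 or more tumours. Keap1+Lkb1 averaged 6.85 to 9.64 over mice (median 7.84) and inert/inert 6.75 to 8.62 (median 7.50), so the mice overlap widely and the comparison is within the mouse. That difference ranged from -0.98 to 2.27 (median 0.36) and was above 0 in 28 of 44 mice. Its mean was 0.36 ± 0.11 (SE), a 1.28-fold larger geometric mean (sign-flip permutation, adjusted p = 0.00587). Of the 106 pairs tested, 35.8% were called higher, with a median of 0.18, and Keap1+Lkb1 was in place 29. All pairs of a mouse are set against the same inert/inert tumours, so their differences move together.

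Of the single genes, Lkb1 passed in mean log2 size and Keap1 did not, and both calls depended on the setting. Lkb1+inert tumours exceeded inert/inert by 0.27 ± 0.09 (26 of 45 mice, sign-flip permutation, adjusted p = 0.00956), and 64.7% of single genes were called higher. The Lkb1+inert value did not pass near 300000 cells (0.04, 20 mice, adjusted p = 0.758), as the difference from KT mice (0.22, permutation, adjusted p = 0.285) or with tumours of at least 500 cells (0.60, 4 mice, exact sign-flip, adjusted p = 0.174). Keap1+inert differed by 0.04 ± 0.07 (20 of 45 mice, 95% interval -0.10 to 0.17, adjusted p = 0.631), but it passed with tumours of at least 200 cells (0.23, adjusted p = 0.0146) and with the log2 of mean cells (0.34, adjusted p = 0.031). Set against the singles, Keap1+Lkb1 minus Keap1+inert was 0.32 ± 0.12 (31 of 44 mice, sign-flip permutation p = 0.00717, adjusted p = 0.0552), just short of the threshold. In that family of 212 steps 8.96% were called higher, and this step was in place 14. Keap1+Lkb1 minus Lkb1+inert was 0.10 ± 0.13 (22 of 44 mice, 95% interval -0.16 to 0.35, adjusted p = 0.746). The interaction in size was 0.06 ± 0.15 (95% interval -0.24 to 0.35, sign-flip permutation, adjusted p = 0.871), where the median over all pairs was -0.21 and 20.8% were called lower.

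The size result varied with the mice and settings used. Near 100000 cells Keap1+Lkb1 exceeded inert/inert by 0.50 ± 0.15 (24 mice, sign-flip permutation, adjusted p = 0.00772), but near 300000 cells by 0.19 ± 0.15 (20 mice, adjusted p = 0.447); whether the 2 sets of mice differ was not tested. Measured as the difference from KT mice, in which Keap1+Lkb1 stood 0.09 ± 0.04 above inert/inert (6 of 9 mice, exact sign-flip p = 0.0625, adjusted p = 0.904, 0.0% of pairs called), it was 0.27 ± 0.12 (permutation p = 0.0413, adjusted p = 0.11, 20.8% of pairs called higher). In KT mice 5 of 134 pairs had an unadjusted p under 0.05. The step from Keap1+inert passed under 7 of 14 other settings, among them tumours of at least 100 cells (0.42, adjusted p = 0.00829), and when any one of 10 of the 45 mice was left out (adjusted p = 0.00509 to 0.0498). With at least 6 mice asked of each genotype it was 0.32 (sign-flip permutation, adjusted p = 0.0469). The minimum of 6 mice, NE counted as inert, mice with LA names and leaving out single mice were chosen after seeing the data.

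**Figure D2:**
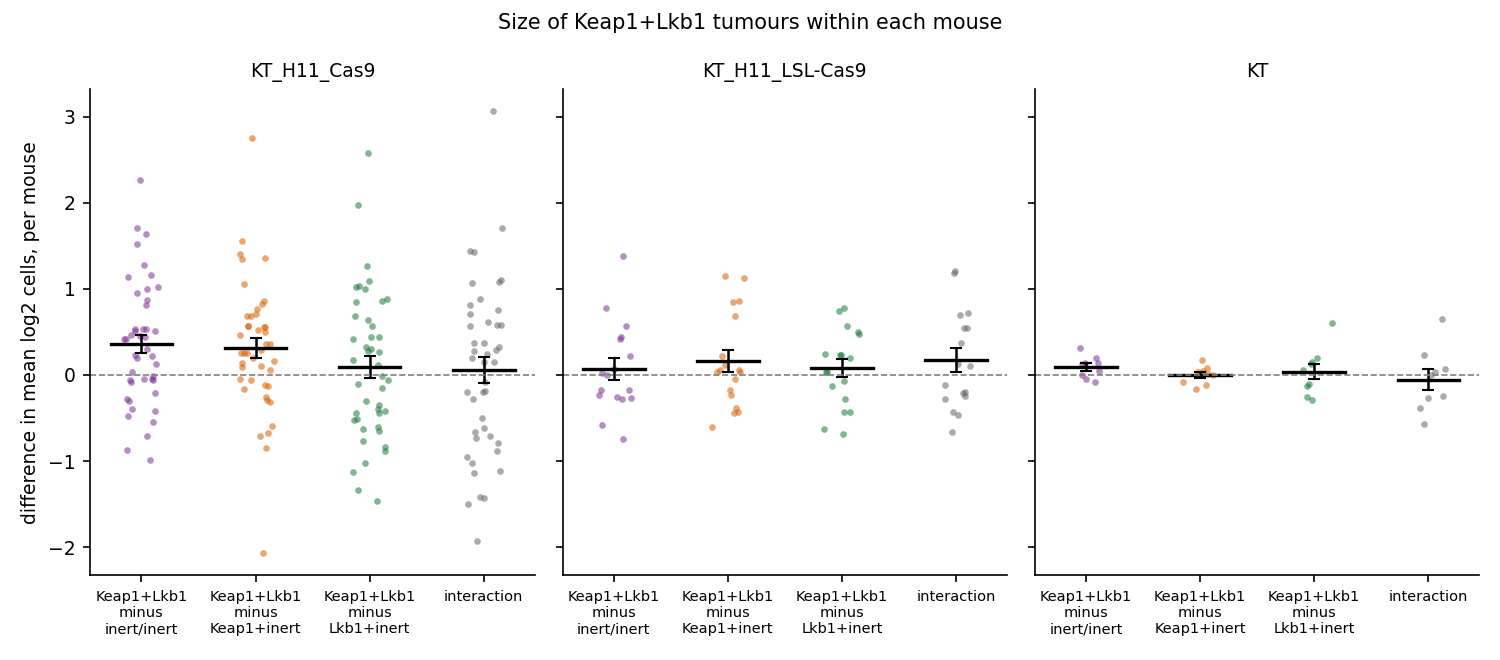
Differences in mean log2 cells within each mouse (y axis), one point per mouse, for Keap1+Lkb1 against inert/inert, Keap1+inert and Lkb1+inert and for the interaction, in the 3 groups. Black lines are the mean and its SE. In KT_H11_Cas9 mice the mean against inert/inert is 0.36 and that against Lkb1+inert 0.10.

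In KT_H11_LSL-Cas9 mice the mean size of Keap1+Lkb1 tumours differed from inert/inert by 0.07 ± 0.13, with 9 of 17 mice above 0 (range -0.74 to 1.38, sign-flip permutation, adjusted p = 0.828, 2.73% of pairs called higher). Both single genes lay at -0.05 (adjusted p = 0.839 for both). The steps were 0.16 ± 0.13 from Keap1+inert and 0.08 ± 0.11 from Lkb1+inert, and the interaction was 0.17 ± 0.14 (sign-flip permutation, adjusted p = 0.754, 0.897 and 0.942). The difference in size between KT_H11_Cas9 and KT_H11_LSL-Cas9 mice did not pass (0.29 ± 0.17, 95% interval -0.04 to 0.61, permutation, adjusted p = 0.339, 2.11% of pairs called higher).

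The genotypes differed in their upper tail and hardly at the median. In KT_H11_Cas9 mice the median tumour had 149.9 cells with Keap1+Lkb1, 149.6 with Keap1+inert, 149.9 with Lkb1+inert and 163.9 with inert/inert. The 95th percentile was 9921 cells with Keap1+Lkb1, 1617 with Keap1+inert, 7489 with Lkb1+inert and 1112 with inert/inert. It was thus 8.92 times that of inert/inert (95% interval from mice drawn with replacement 4.15 to 15.2), 6.13 times that of Keap1+inert (2.92 to 10.5) and 1.32 times that of Lkb1+inert (0.515 to 4.32). At the 99th percentile, Keap1+Lkb1 had 57461 cells and Lkb1+inert 68722, a ratio of 0.836 (0.405 to 1.36). So the large tumours of the pair differed from those of Keap1+inert and of inert/inert, and no difference from Lkb1+inert was detectable at this number of tumours. The ratio of 95th percentiles to Lkb1+inert was 0.751 near 100000 cells and 6.03 near 300000 cells.

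**Figure D3:**
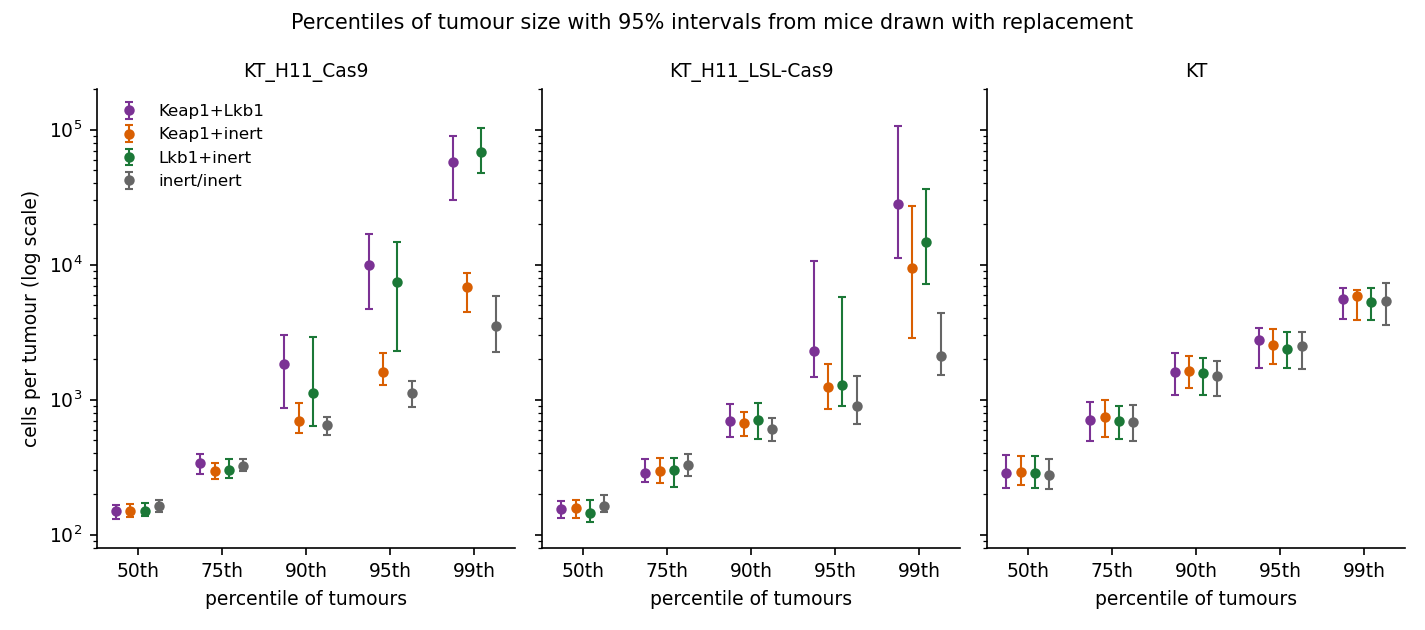
The 50th to 99th percentiles of cells per tumour (y axis, log scale) for Keap1+Lkb1, Keap1+inert, Lkb1+inert and inert/inert in the 3 groups, with 95% intervals from mice drawn with replacement. In KT_H11_Cas9 mice the 4 medians lie between 149.6 and 163.9 cells while the 95th percentiles spread between 1112 and 9921 cells.

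Large tumours were counted next. At least 1000 cells were reached by 62 of 511 Keap1+Lkb1 tumours of KT_H11_Cas9 mice (12.1%, exact binomial 95% interval 9.43% to 15.3%), by 116 of 1464 Keap1+inert (7.92%, 6.59% to 9.43%), by 110 of 1021 Lkb1+inert (10.8%, 8.94% to 12.8%) and by 62 of 1107 inert/inert tumours (5.60%, 4.32% to 7.12%). Such intervals cover counting error alone. Within mice the share of Keap1+Lkb1 exceeded that of inert/inert by 7.76 ± 1.79 percentage points (32 of 44 mice, sign-flip permutation, adjusted p = 0.000505), where 43.4% of pairs were called higher and the pair was in place 9 of 106. Against Keap1+inert the difference was 4.47 ± 2.01 points and against Lkb1+inert 2.43 ± 1.87 (sign-flip permutation, adjusted p = 0.244 and 0.58, 3.3% of steps called higher). Near 300000 cells alone the difference from inert/inert was 3.67 points (20 mice, adjusted p = 0.323), and near 100000 cells 11.2 points (24 mice, adjusted p = 0.000633).

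At 5000 cells the pair also exceeded Keap1+inert. The share of Keap1+Lkb1 tumours this large was 6.65% (34 of 511), against 1.64% (24 of 1464) with Keap1+inert, 6.07% (62 of 1021) with Lkb1+inert and 0.723% (8 of 1107) with inert/inert. The difference within mice was 6.55 ± 1.31 points from inert/inert (26 of 44 mice, sign-flip permutation, adjusted p = 5.89e-05, 44.3% of pairs called higher, place 5 of 106). From Keap1+inert it was 5.11 ± 1.53 points (25 of 44 mice, adjusted p = 0.0148, 10.8% of steps called higher), and from Lkb1+inert 1.07 ± 1.72 points (95% interval -2.31 to 4.45, adjusted p = 0.934). The difference from Keap1+inert was 4.87 points near 100000 cells and 5.39 points near 300000 cells, and neither passed alone (24 and 20 mice, sign-flip permutation, adjusted p = 0.193 and 0.203). At 10000 cells there were 26 Keap1+Lkb1 tumours in 24 mice, 7 Keap1+inert, 46 Lkb1+inert and 0 inert/inert tumours, where a count of 0 of 1107, taken as up to 3 counts, allows a share of up to 0.271% (upper bound of the exact binomial 95% interval 0.333%).

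In KT mice, where no guide cuts, the tails of the 4 genotypes lay close together. The shares of at least 1000 cells were 17.7% with Keap1+Lkb1, 18.8% with Keap1+inert, 16.9% with Lkb1+inert and 17.1% with inert/inert, and the 95th percentile of Keap1+Lkb1 was 1.09 times that of inert/inert (0.910 to 1.27). In mean log2 size, Keap1+inert exceeded inert/inert in KT by 0.18 ± 0.02 when same-guide constructs were kept (exact sign-flip, adjusted p = 0.0332), and by 0.09 without them (adjusted p = 0.398). In KT_H11_LSL-Cas9 mice the shares of at least 1000 cells were 7.86%, 6.68%, 6.39% and 4.75% in the same order. The 95th percentile of Keap1+Lkb1 was 2294 cells there, against 893 with inert/inert (ratio 2.57, 1.11 to 13.4), 1241 with Keap1+inert and 1293 with Lkb1+inert. At 10000 cells the KT_H11_LSL-Cas9 mice held 13 Keap1+Lkb1 tumours, in 8 mice, beside 7 Keap1+inert, 11 Lkb1+inert and 0 of 400 inert/inert tumours, where 0 allows a share of up to 0.75% by the same 3 counts (upper bound of the exact binomial 95% interval 0.918%). Within mice, the share of at least 5000 cells exceeded that of inert/inert by 3.62 ± 1.45 points (7 of 17 mice, sign-flip permutation p = 0.0161, adjusted p = 0.0536), where 26.4% of pairs were called higher; without mouse 13 it passed (4.08 points, adjusted p = 0.0491).

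Single tumours carried much of the cell mass. In KT_H11_Cas9 mice the mean Keap1+Lkb1 tumour had 2673 cells, against 451 with Keap1+inert, 2916 with Lkb1+inert and 351 with inert/inert. The largest Keap1+Lkb1 tumour had 260753 cells, 19.1% of all Keap1+Lkb1 cells of the group, and the largest 10 held 61.3%; the mean without the largest was 2167. The mean was 7.62 times that of inert/inert (4.78 to 11.7), 5.92 times that of Keap1+inert (3.73 to 8.64) and 0.917 times that of Lkb1+inert (0.524 to 1.51). The largest Keap1+Lkb1 tumour of a mouse exceeded its largest inert/inert tumour in 33 of 45 mice, its largest Keap1+inert tumour in 30 and its largest Lkb1+inert tumour in 16, though these genotypes differ in their number of tumours. In KT_H11_LSL-Cas9 mice the mean was 1563 cells, against 618 with Keap1+inert, 839 with Lkb1+inert and 309 with inert/inert, and 1 tumour of 158508 cells made up 24.1% of the Keap1+Lkb1 cells.

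Although Keap1+Lkb1 tumours were few, their summed cells, taken over those of inert/inert, were higher than in KT. This total was 2.06-fold of KT for Keap1+Lkb1 in KT_H11_Cas9 mice (1.24 to 3.33), or 1.66-fold without the largest tumour. The same value was 0.618-fold for Keap1+inert (0.497 to 0.768) and 3.65-fold for Lkb1+inert (2.43 to 5.06). In KT_H11_LSL-Cas9 mice it was 3.11-fold for Keap1+Lkb1 (1.27 to 6.45), 1.34-fold for Keap1+inert (0.737 to 2.26) and 2.08-fold for Lkb1+inert (1.07 to 3.46). These are descriptions with intervals from mice drawn with replacement, and no test was made.

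The 4 guide pairs were all reduced in number in KT_H11_Cas9 mice, to different degrees. As a fold of KT, relative to inert/inert, Keap1_V1 with Lkb1_V1 stood at 0.313 (135 tumours), Keap1_V1 with Lkb1_V2 at 0.440 (184 tumours), Keap1_V2 with Lkb1_V1 at 0.208 (108 tumours) and Keap1_V2 with Lkb1_V2 at 0.191 (84 tumours). The guides beside an inert guide differed too: Keap1_V1 stood at 0.747 and Keap1_V2 at 0.285, Lkb1_V1 at 0.305 and Lkb1_V2 at 0.609. The guide pair of the weakest guides, Keap1_V1 and Lkb1_V2, was the least reduced.

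In KT_H11_Cas9 mice the intervals of the ratio to the product of the single guides lay above 1 for the pairs with Lkb1_V1, and differences between guide pairs were not tested. The observed number was 2.39 times the product for Keap1_V2 with Lkb1_V1 (95% interval 1.88 to 3.09) and 1.37 times for Keap1_V1 with Lkb1_V1 (1.09 to 1.72). It was 1.10 times for Keap1_V2 with Lkb1_V2 (0.861 to 1.38) and 0.967 times for Keap1_V1 with Lkb1_V2 (0.746 to 1.25). In KT_H11_LSL-Cas9 mice the 4 ratios, in the order in which the pairs were first named, were 1.10, 0.949, 1.59 and 1.25, and the interval of Keap1_V2 with Lkb1_V1 alone lay above 1 (1.13 to 2.26). Pairs that share a guide share its single-guide tumours, so these ratios are not independent.

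**Figure D4:**
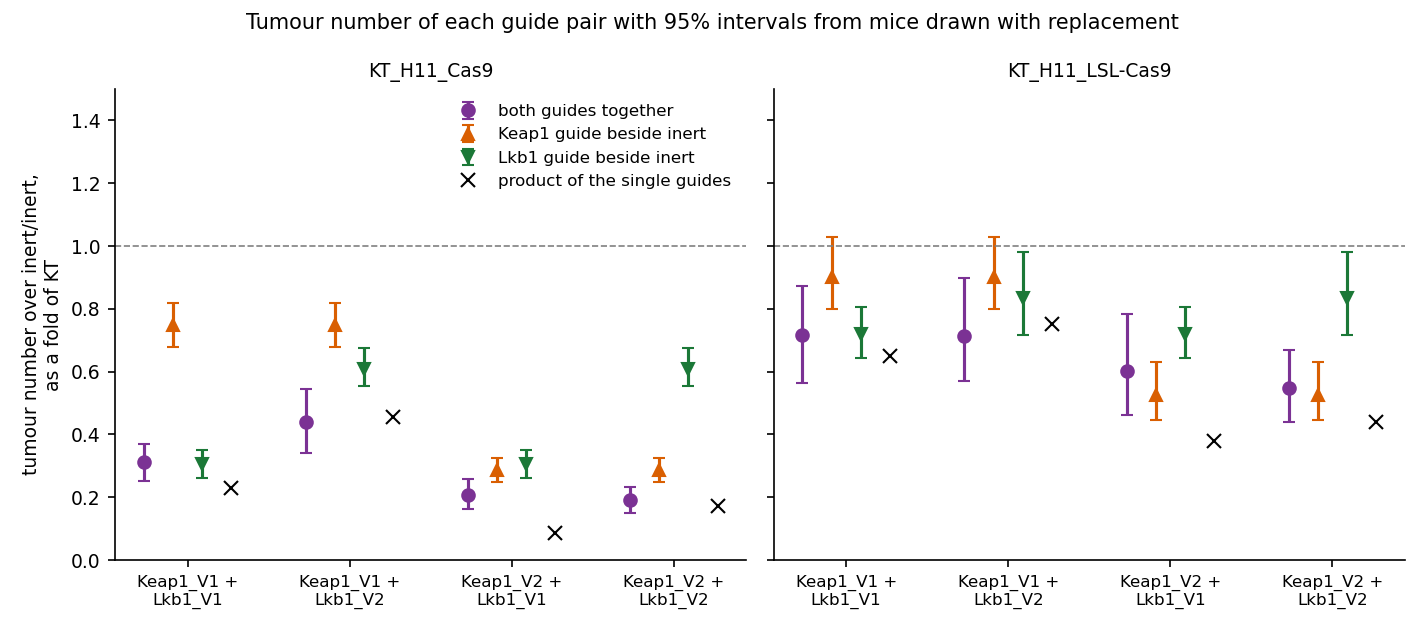
Tumour number over inert/inert as a fold of KT (y axis) for each of the 4 guide pairs, its Keap1 guide and its Lkb1 guide beside an inert guide and the product of both, with 95% intervals from mice drawn with replacement, in KT_H11_Cas9 (left) and KT_H11_LSL-Cas9 (right). The widest gap between pair and product is that of Keap1_V2 with Lkb1_V1 in KT_H11_Cas9 mice, at 0.208 against 0.0871.

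Guide choice and order were tested on the numbers of Keap1+Lkb1 tumours within mice, against KT. Keap1_V1 over Keap1_V2 was 0.86 ± 0.19 higher in KT_H11_Cas9 than in KT mice on the log2 scale (means 0.71 and -0.15, permutation, adjusted p = 0.00239), and 17.5% of the 280 such contrasts over all pairs were called higher. Lkb1_V1 over Lkb1_V2 differed by -0.28 ± 0.16 (adjusted p = 0.237). Constructs with Keap1 in place 1 were reduced more than those with Keap1 in place 2, by -0.51 ± 0.11 (means -0.14 in KT_H11_Cas9 and 0.37 in KT, permutation, adjusted p = 0.00427), where 10.4% of contrasts were called lower. The counts were 250 and 261 tumours in KT_H11_Cas9, against 1344 and 1050 in KT. Both Keap1 guides beside an inert guide showed the same order, at 0.70-fold in place 1 and 0.85-fold in place 2 for Keap1_V1, and 0.19-fold and 0.41-fold for Keap1_V2. The Lkb1 guides beside an inert guide did not share an order, at 0.30-fold in place 1 and 0.32-fold in place 2 for Lkb1_V1, and 0.67-fold and 0.54-fold for Lkb1_V2. In KT_H11_LSL-Cas9 mice none of the 3 contrasts passed (permutation, adjusted p = 0.641 to 0.897), where 6.07% of contrasts were called higher and 1.79% lower.

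Large tumours arose from every guide pair. At least 1000 cells were reached by 22 of the 135 tumours with Keap1_V1 and Lkb1_V1 (16.3%), 11 of the 184 with Keap1_V1 and Lkb1_V2 (5.98%), 14 of the 108 with Keap1_V2 and Lkb1_V1 (13%) and 15 of the 84 with Keap1_V2 and Lkb1_V2 (17.9%) in KT_H11_Cas9 mice. The lowest share was that of the guide pair with the smallest loss in number. In KT_H11_LSL-Cas9 mice this order was not seen. Keap1_V1 with Lkb1_V1 (0.718-fold) and Keap1_V1 with Lkb1_V2 (0.714-fold) were about equally the least reduced, and had the highest shares (10.7% and 8.33%). Keap1_V2 with Lkb1_V1 had the lowest share (5.31%). The shares in KT mice lay between 15.4% and 19.5%. Beside an inert guide in KT_H11_Cas9 mice, the shares were 7.47% for Keap1_V1, 9.05% for Keap1_V2, 13% for Lkb1_V1 and 9.49% for Lkb1_V2. Each guide pair had at most 184 tumours over 45 mice, so that sizes were not tested by guide. By order, 31 of 250 tumours with Keap1 in place 1 and 31 of 261 with Lkb1 in place 1 were this large, and in KT_H11_LSL-Cas9 mice 25 of 239 and 8 of 181.

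In KT_H11_Cas9 mice, Keap1+Lkb1 had the lowest number of the gene pairs that share Keap1 or Lkb1, outside those with Pcna. Pcna is the clamp of DNA polymerase that every dividing cell needs. In size in these mice, Keap1+Lkb1 lay above the other Keap1 pairs tested and within the range of the other Lkb1 pairs. In KT_H11_Cas9 mice 0 of the 14 other Keap1 pairs tested for size lay above it (median -0.01, range -0.59 to 0.21), while 5 of the 14 other Lkb1 pairs did (median 0.27, range -0.47 to 0.63). In number, 14 of the 15 other Keap1 pairs and 14 of the 15 other Lkb1 pairs lay above the -1.84 of Keap1+Lkb1. The exceptions were Keap1+Pcna at -4.33 and Lkb1+Pcna at -4.50. Another Keap1 pair lay close by at -1.77, and differences in number between pairs were not tested. In KT_H11_LSL-Cas9 mice 4 of 14 Keap1 pairs and 9 of 14 Lkb1 pairs lay above its size of 0.07, and 12 of 15 of each lay above its number.

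**Figure D5:**
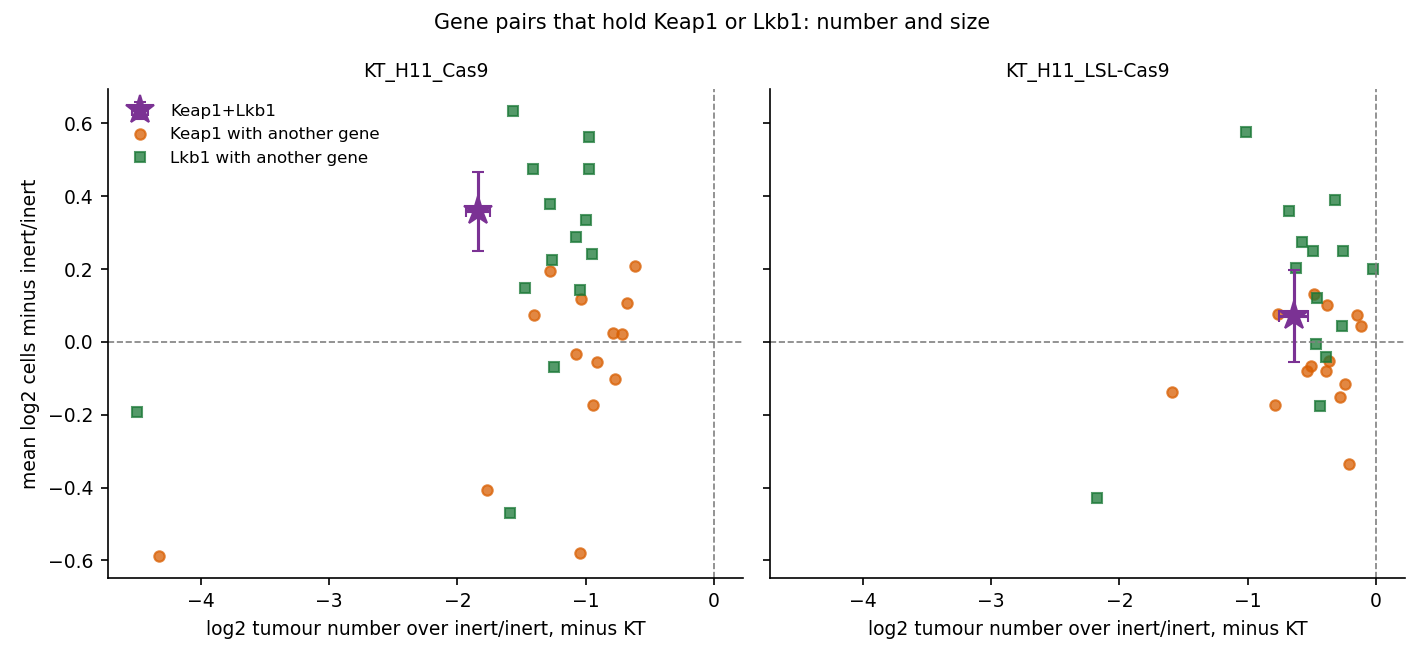
Gene pairs that hold Keap1 or Lkb1: log2 tumour number over inert/inert minus the KT value (x axis) and mean log2 cells minus inert/inert (y axis), in KT_H11_Cas9 (left) and KT_H11_LSL-Cas9 (right). The star is Keap1+Lkb1 with the SE of each value, at -1.84 and 0.36 in KT_H11_Cas9 mice; other points are Keap1 or Lkb1 with another gene.

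Compared within mice, Keap1+Lkb1 tumours were larger than those of 5 of 28 such pairs in KT_H11_Cas9 mice and smaller than those of 0 (17.9% called higher and 0.0% lower by the sign-flip test). The 5 are named after their values were seen, and each holds Keap1. Keap1+Lkb1 exceeded Keap1+Rnf43, with the ubiquitin ligase that removes Wnt receptors, by 0.41 ± 0.11 (32 of 44 mice) and Keap1+Rb1, with the retinoblastoma protein that holds cells before S phase, by 0.38 ± 0.11 (30 of 43 mice; sign-flip permutation, adjusted p = 0.015 for both). It exceeded Ccnl2+Keap1, with cyclin L2, by 0.54 ± 0.14 (16 of 22 mice, adjusted p = 0.0178), and Keap1+Rasa1, with a GTPase-activating protein, by 0.34 ± 0.11 (29 of 44 mice, adjusted p = 0.0183). It exceeded Keap1+p53, with the damage-response factor Trp53, by 0.33 ± 0.11 (31 of 44 mice, adjusted p = 0.0191). With tumours of at least 200 cells or at least 10 tumours per mouse, 0 such comparisons passed, and with mean cells 9 did. In KT mice 0.0% of 30 such pairs were called, and without adjustment Keap1+Lkb1 passed as larger than 1 pair and as smaller than 0, by the exact sign-flip test. In KT_H11_Cas9 mice the unadjusted counts were 7 larger and 0 smaller.

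The Lkb1 pairs did not differ from Keap1+Lkb1 past the threshold. Lkb1+p53 tumours exceeded inert/inert by 0.29 and lay 0.08 ± 0.12 below Keap1+Lkb1 (21 of 44 mice, sign-flip permutation, adjusted p = 0.64). Of the 3 largest pairs, Apc+Lkb1, with the scaffold that keeps beta-catenin low, exceeded inert/inert by 0.63, so that Keap1+Lkb1 minus this pair was -0.34 ± 0.22 (15 of 34 mice, adjusted p = 0.332). For Lkb1+Setd2, with the histone H3 lysine 36 methyltransferase, the pair's value was 0.47 and the difference -0.12 ± 0.15 (25 of 44 mice, adjusted p = 0.629). The 3 smallest pairs were measured in few mice: Keap1+Pcna (difference 0.31, 6 mice), Kat7+Keap1, with a histone acetyltransferase (1.09, 4 of 4 mice above 0), and Kmt2b+Lkb1, with a histone methyltransferase (0.35, 4 mice). None of these passed (exact sign-flip, adjusted p = 0.332, 0.332 and 0.636), and with 4 mice an exact test cannot go below 0.125.

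In KT_H11_LSL-Cas9 mice 1 of 28 pairs passed (3.57%). This was Lkb1+Pcna, named after its value was seen, below Keap1+Lkb1 by 0.56 ± 0.13 (14 of 15 mice, exact sign-flip, adjusted p = 0.012). There Keap1+Lkb1 minus Keap1+p53 was -0.01 ± 0.12 and minus Apc+Lkb1 -0.13 ± 0.16 (sign-flip permutation, adjusted p = 1.0 and 0.77).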

How the data were processed

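Barcodes and guide pairs were sequenced from lung DNA of 74 mice. The deposited table gives a read count per barcode and guide pair, and a signal, the absolute cell number of the tumour, which by its column name and the spike-in entries of the deposited table the authors scaled from the reads. No source used here gives the formula, the read processing or the filters. Cells per read were constant within a mouse, and no tumour below 50 cells was listed. Of 379042 entries, 287 spike-in entries, 1 entry with a spike-in and a guide, and 6757 tumours whose construct held 1 guide in both of its places did not enter the comparisons.

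Genotypes were read from guide names and groups from the genotype labels. Size was the difference in mean log2 cells within a mouse, tested by 2-sided sign-flip permutation over mice (exact up to 16 mice, otherwise 100000 resamples). Number was log2 of tumours over inert/inert, with 0.5 added, in mice with at least 5 inert/inert tumours, and Cas9 groups were set against KT by a studentised 2-sided permutation of mouse labels. P-values were adjusted by Benjamini-Hochberg over all single genes, pairs, steps from a single gene to a pair, or interactions, as the case may be, at a threshold of 0.05, and a genotype needed 2 mice. The interaction is the pair minus both singles plus inert/inert. Percentile, sum and mean intervals came from 1000 draws of mice with replacement. Pairs were named for sharing Keap1 or Lkb1 and being with p53 or Apc, or among the 3 largest or 3 smallest in size in KT_H11_Cas9 mice. Alternatives changed the cell minimum, tumours per mouse, weights, size measure, pseudocount, background, spike-in total, same-guide constructs and each mouse in turn. The minimum of 6 mice, NE as inert, the mice with names beginning LA, leaving out single Cas9 mice and the spike-in totals for shares, along with all alternatives for the other pairs and for the difference between Cas9 groups, were chosen after seeing the data. The tests were checked on simulated data: most of the changes put in were recovered, and false calls of size were rare in most draws but clustered in a few of them. The size changes put in shifted every tumour of a pair alike and exceeded the difference seen for Keap1+Lkb1. Recovery of a smaller size change, or of one in the upper tail alone, was not checked. Every pair of a mouse is set against the same inert/inert tumours, so that its size calls are not independent. Members and gene lists were chosen with earlier results of these data known. Computations used scipy 1.17.1, pandas 2.3.3 and numpy 2.4.6 under Python 3.11.15, and plots matplotlib 3.10.9. Some results are not reported here.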

Additional observations from a re-analysis of the deposited data

Results flagged for a closer look

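The number of Keap1+Lkb1 tumours differed between the Cas9 groups by direct tests of the difference. Relative to inert/inert the difference between KT_H11_Cas9 and KT_H11_LSL-Cas9 mice was -1.20 on the log2 scale, with means of -1.13 and 0.07 over 45 and 17 mice (permutation, adjusted p = 6.48e-05). Relative to Keap1+inert it was -0.70, with means of -1.53 and -0.83 (permutation, adjusted p = 0.000302). Relative to Lkb1+inert it was -0.40, with means of -1.0 and -0.60 (permutation, adjusted p = 0.00958), which did not pass with tumours of at least 200 cells (-0.39, adjusted p = 0.173). Both single genes differed in the same direction, Keap1+inert by -0.50 and Lkb1+inert by -0.80 (permutation, adjusted p = 0.000737 and 8.5e-05). The mouse-name letters are tied to the KT_H11_LSL-Cas9 group and cannot be told apart from it. Among 14 values of the KT mice, 0 had a mouse far from the others by Dixon's rule, where chance gives about 1 in 20.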

How the results depend on the processing

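Of the results in KT_H11_Cas9 mice, the number of Keap1+Lkb1 tumours over inert/inert kept its call under every alternative run, with values of -2.0 to -0.61 (adjusted p up to 0.0275) and the smallest loss at 1000 cells. No paired analysis was possible because the replicate numbers were given in accession order and pair no mice, where paired means matched across groups. Sizes and shares of the genotypes were compared within each mouse. The cause of the changes below was not tested. Depth limits what is seen: no tumour under 50 cells is listed and the floor differs between mice.

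Keeping tumours of at least 100 cells gave a size step over Keap1+inert of 0.42 and an interaction in size of -0.022 in KT_H11_Cas9, sizes of 0.052 for Keap1+inert and 0.10 for Lkb1+inert in KT_H11_LSL-Cas9, and a number step over Lkb1+inert of -0.24 there (adjusted p = 0.233). At least 200 cells gave an interaction in size of -0.058 in KT_H11_Cas9 and of -0.058 in KT_H11_LSL-Cas9, sizes of 0.23 for both single genes in KT_H11_LSL-Cas9, -0.012 for Lkb1+inert in KT, a number step over Lkb1+inert of -0.22 in KT_H11_LSL-Cas9, an interaction in number of 0.60 in KT_H11_Cas9, and differences between the Cas9 groups of -0.093 (size step over Lkb1+inert), 0.000051 (size interaction) and -0.39 (number step over Lkb1+inert, adjusted p = 0.173). At least 500 cells gave 0.041 for Keap1+inert in KT_H11_LSL-Cas9 and, in KT, -0.033 for Lkb1+inert and 0.026 for the interaction. At least 500 cells gave no value for the pair's size and interaction in the Cas9 groups, for the steps in KT_H11_Cas9 and for Lkb1+inert in KT_H11_LSL-Cas9, and mice near 100000 cells gave none in KT_H11_LSL-Cas9.

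At least 1000 cells gave number steps of 0.18 over Keap1+inert and -0.27 over Lkb1+inert in KT_H11_Cas9, and in KT_H11_LSL-Cas9 0.19 for the pair, 0.50 over Keap1+inert and 0.33 over Lkb1+inert. At least 3 tumours per mouse gave a step over Keap1+inert of 0.32 in KT_H11_Cas9 (adjusted p = 0.0436) and 0.027 for Lkb1+inert in KT_H11_LSL-Cas9. At least 10 tumours gave 0.29 for the pair in KT_H11_Cas9 (adjusted p = 0.0569) and 0.063 for Keap1+inert in KT_H11_LSL-Cas9. Weighted mice gave 0.29 for the step over Keap1+inert in KT_H11_Cas9 and 0.0018 for Keap1+inert in KT_H11_LSL-Cas9. The log2 of mean cells gave 1.57 for the step over Keap1+inert, -0.21 for that over Lkb1+inert and -0.56 for the interaction in KT_H11_Cas9, and in KT_H11_LSL-Cas9 1.25 for the pair (adjusted p = 0.0385), 0.48 for Keap1+inert and 0.66 for Lkb1+inert. The 90th percentile gave 0.0075 for Keap1+inert and 0.14 for Lkb1+inert in KT_H11_LSL-Cas9 and -0.0012 for Lkb1+inert in KT.

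Set against KT, size was 0.27 for the pair (adjusted p = 0.11) and -0.056 for Keap1+inert in KT_H11_Cas9, and -0.020 for the pair in KT_H11_LSL-Cas9. Near 100000 cells the interaction in size was -0.072 in KT_H11_Cas9 and the step over Keap1+inert 0.039 in KT. Near 300000 cells size was 0.19 for the pair and -0.058 for Keap1+inert in KT_H11_Cas9, and in KT -0.064 for Lkb1+inert and 0.013 for the interaction; the number step over Lkb1+inert was -0.30 in KT_H11_LSL-Cas9, and the 95th percentile ratio to Lkb1+inert 6.03. With same-guide constructs kept, the interaction in size was -0.0016 in KT_H11_Cas9, and Keap1+inert 0.0073 and Lkb1+inert 0.091 in KT_H11_LSL-Cas9. NE as inert gave a step over Keap1+inert of 0.33 in KT_H11_Cas9 and 0.0090 in KT, 0.13 for Lkb1+inert in KT_H11_LSL-Cas9, an interaction in number of 0.39 in KT_H11_Cas9 and a number step over Lkb1+inert of -0.22 in KT_H11_LSL-Cas9 (adjusted p = 0.0671). Adding 1 gave an interaction in number of 0.36, and summing tumours over mice 0.32, with an interval above 0. The plain difference of means gave -0.25 for the KT_H11_LSL-Cas9 step over Lkb1+inert (adjusted p = 0.122). Adjusting only over genotypes measured in at least 6 mice left the KT_H11_Cas9 step over Keap1+inert at 0.32 with an adjusted p of 0.0469 (minimums of 2 to 6 mice were tried), and mice with names beginning LA gave 0.39. The NE, LA, mouse-minimum, other-pair, between-group and percentile alternatives were chosen after seeing the data.

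As shares, Keap1+Lkb1 minus inert/inert was -2.93 points at 200 cells and 4.91 at 500 cells (adjusted p = 0.0664) in KT_H11_Cas9, 3.67 near 300000 cells, and -2.33 at 200 cells in KT_H11_LSL-Cas9. Minus Keap1+inert it was 5.11 at 5000 cells, and minus Lkb1+inert -0.89 at 5000 cells near 100000 cells, in KT_H11_Cas9, and -0.51 at 500 cells in KT_H11_LSL-Cas9. In KT it was 0.078 minus Keap1+inert at 5000 cells, -0.24, -0.23 and -0.074 minus inert/inert, Keap1+inert and Lkb1+inert at 5000 cells near 100000 cells, and -0.71 minus inert/inert near 300000 cells. The pairs that differ from Keap1+Lkb1 in size numbered 0 at 200 cells, 9 with mean cells and 0 at 10 tumours, against 5.

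Leaving out 1 mouse at a time gave -0.28 to -0.22 for the number step over Lkb1+inert in KT_H11_LSL-Cas9 and 0.26 to 0.37 for the size step over Keap1+inert in KT_H11_Cas9 (adjusted p = 0.00509 to 0.0891; past the threshold without mouse 13, 14, 15, 19, 22, 23, 33, 36, 41 or 42). It gave -0.015 to 0.10 for the interaction in size in KT_H11_Cas9, and in KT_H11_LSL-Cas9 -0.010 to 0.12 for the pair, -0.084 to 0.028 for Keap1+inert and -0.43 to 0.68 for the share of 5000 cells minus that of Lkb1+inert. The number of Keap1+Lkb1 in KT_H11_Cas9 stayed between -1.88 and -1.82, and its size between 0.31 and 0.39.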
